A study of Mus musculus with 6 samples.

Results

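Around Tnfsf4 and Tnfsf18 on mouse chromosome 1, from 161250000 to 161850000 on the mm10 build, noncoding transcription was measured in left atria with and without overexpression of FOG2. Of the 34518 features in the deposited table, the 51 that overlap this window are described. They comprise 48 in a block from 161388572 to 161704597, 3 in the flank to its right and 0 in the flank to its left. The window was set around the block, and the locus and block borders were chosen by the fold changes and calls of the same comparison. Those values, and the contrast with the flanks, are therefore a description and not a test. There were 3 libraries with FOG2 overexpression (FOG2_OE) and 3 wild type ones (WT), all from the left atrium of adult mice of the outbred CD1 strain. The labels' protocol calls the animals DTG and NTG without spelling these out, and WT and FOG2_OE animals alike had spent 1 week off doxycycline. The promoter that drove FOG2 and the cells that carried it are not given in the sources used here. Ribosomal and polyadenylated RNA were removed before sequencing, so the table describes RNA largely without a poly(A) tail.

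Tnfsf4 encodes OX40L and Tnfsf18 encodes GITRL, which are membrane ligands of the tumour necrosis factor (TNF) superfamily. They bind the receptors OX40 (Tnfrsf4) and GITR (Tnfrsf18) on T cells and give costimulatory signals, and both are known from antigen-presenting cells and endothelial cells. Fasl, another ligand gene of the family, which encodes the death ligand of the receptor Fas, lies farther along the same chromosome. FOG2, encoded by Zfpm2, is a cofactor that binds GATA transcription factors, and GATA4 and the T-box factor TBX5 act together in the atrial gene programme. Noncoding RNA is often made from enhancers and gene-poor stretches near active genes, either as annotated long noncoding RNA or as unannotated transcripts, and much of it has no poly(A) tail.

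The block holds both ligand genes. Tnfsf4 runs from 161395409 to 161418410 and Tnfsf18 from 161494655 to 161505290 on the plus strand in GENCODE M21, with 76.2 kb between them. RefSeq also lists the long noncoding RNA Gm31815 from 161516075 to 161591458 on the minus strand. Promoters in the block that are given by RefSeq (GRCm38.p6) are shown because features of the block cover them. The 250 bases before the Tnfsf18 start (chr1:161494407-161494656, plus strand) share their last 195 bases with the feature MSTRG.5021, printed in capitals. The pair of Gm31815 promoters (chr1:161527205-161527454 and chr1:161591459-161591708, both minus strand) lie whole inside the feature MSTRG.5377.
Tnfsf18: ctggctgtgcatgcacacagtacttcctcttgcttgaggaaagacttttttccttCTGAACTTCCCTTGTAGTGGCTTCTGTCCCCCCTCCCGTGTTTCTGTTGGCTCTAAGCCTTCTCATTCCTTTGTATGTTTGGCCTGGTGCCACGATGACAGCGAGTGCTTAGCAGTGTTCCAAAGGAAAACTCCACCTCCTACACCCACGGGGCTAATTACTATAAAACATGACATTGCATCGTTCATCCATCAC
Gm31815, inner start: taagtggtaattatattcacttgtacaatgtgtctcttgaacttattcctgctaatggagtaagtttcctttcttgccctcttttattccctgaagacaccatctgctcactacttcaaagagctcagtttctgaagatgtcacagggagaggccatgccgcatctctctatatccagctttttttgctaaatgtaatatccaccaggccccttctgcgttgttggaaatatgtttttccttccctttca
Gm31815, outer start: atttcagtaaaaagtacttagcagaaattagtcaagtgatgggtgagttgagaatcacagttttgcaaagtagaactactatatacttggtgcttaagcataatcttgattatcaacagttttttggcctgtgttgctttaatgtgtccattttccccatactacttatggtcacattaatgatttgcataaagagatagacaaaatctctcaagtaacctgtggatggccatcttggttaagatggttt
The GATA motif AGATAA and the T-box motif AGGTGT, each searched on both strands, have 0 matches in these 3 stretches. In RefSeq promoters of the same length, 9.99% of 32851 hold the GATA motif and 11.8% the T-box motif. These letters not being in the windows says nothing about binding by either factor.

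Within a group the 6 sample columns of the table are exact multiples of each other, so they are values fitted by a model rather than counts. Libraries of a group differ only by size in them, and they carry no spread between replicates. Standard errors (implied SE) were solved from the deposited likelihood ratios instead. The effective library sizes implied by the fitted values and the deposited fold changes and mean levels were 72454232 to 84895513 reads in FOG2_OE and 71170626 to 82239906 reads in WT. Levels are given below as CPM, fitted reads scaled to that size. The labels were checked by Zfpm2: the feature MSTRG.29831 in its gene body stood at 416 CPM in FOG2_OE, against 0.484 CPM in WT. The authors' deposited table put its log2 fold change at 9.74, with an implied SE of 0.31 and an adjusted p of 2.4e-117. All 51 features of the window are listed on the minus strand, against 49.0% of all features. In the table as a whole, 87.8% of neighbouring features no more than 20 kb apart share a strand. Per the labels' protocol the kit was one that does not record strand, so reads of Tnfsf4 or Tnfsf18 mRNA and of a transcript on the other strand could not be told apart.

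Each of the 48 features of the block had a lower fitted level in FOG2_OE atria than in WT atria. Summed over the 48 features, the fitted values were 34.0, 30.9 and 36.2 reads in FOG2_OE libraries 1 to 3, against 867, 955 and 1002 reads in WT libraries 1 to 3. The block thus stood at 0.426 CPM in FOG2_OE and 12.2 CPM in WT, which is 28.6-fold lower, with a 95% exact binomial interval of 23.4 to 35.2 that covers counting error only. In the authors' deposited table, 44 of the 48 features were called lower and 0 higher at an adjusted p under 0.05 (edgeR likelihood ratio test with Benjamini-Hochberg adjustment), where 4.65% of all features were called lower and 1.16% higher. All 48 had an unadjusted p under 0.05 in the authors' deposited table, where 12.5% of all features had one and were lower. With the median ratio of all features centred at 1, 42 were called lower (3.49% of all features), and at an adjusted p under 0.01, 36 were (2.69%). Of the features with a mean fitted count of at least 20, 3 lie in the block and all 3 were called lower (7.86% of all such features). Referring the deposited likelihood ratio to an F distribution left 14 calls with 10 residual degrees of freedom (1.07% of all features) and 0 with 4 (0.0%), where 46 of the 48 had an unadjusted p under 0.05 (5.58% of all features had one and were lower). Since the calls chose the block, nothing is read from these shares. The deposited log2 fold changes of the block ran from -7.79 to -2.60 with a median of -5.16 in the authors' deposited table, and the median of all features was -0.21. In these bulk samples, fewer cells that make this RNA and less of it per cell cannot be told apart.

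The FOG2_OE side of these ratios rests on few reads. The fitted totals over the 3 FOG2_OE libraries were within 0.1 of a whole number for all 28 features above 0, and can be read as totals of reads. They came to about 1 read in 14 features, 2 reads in 4, 3 reads in 5 and 4 reads in 2, and to more in 3, the highest of them with 41.9. The other 20 features stood at 0 in FOG2_OE, as did 1.07% of all features. For these 20 the deposited fold change is set by a small number added before taking logarithms. The deposited log2 fold changes of the 28 features above 0 are likewise nearer to 0 than the ratios of fitted levels printed here. Taken against a floor of 3 reads over the 3 libraries, 0.0127 CPM, they were at least 4.21-fold to at least 27.9-fold lower in FOG2_OE. These bounds take the WT level as measured, and the exact lower limits that also cover counting error in WT ran from 2.84 to 22.2. With these features at their bounds and the others as deposited, the median log2 fold change of the block was -3.71. The implied standard errors of the other 28 ran from 0.45 to 1.72 (median 1.41).

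**Figure D1:**
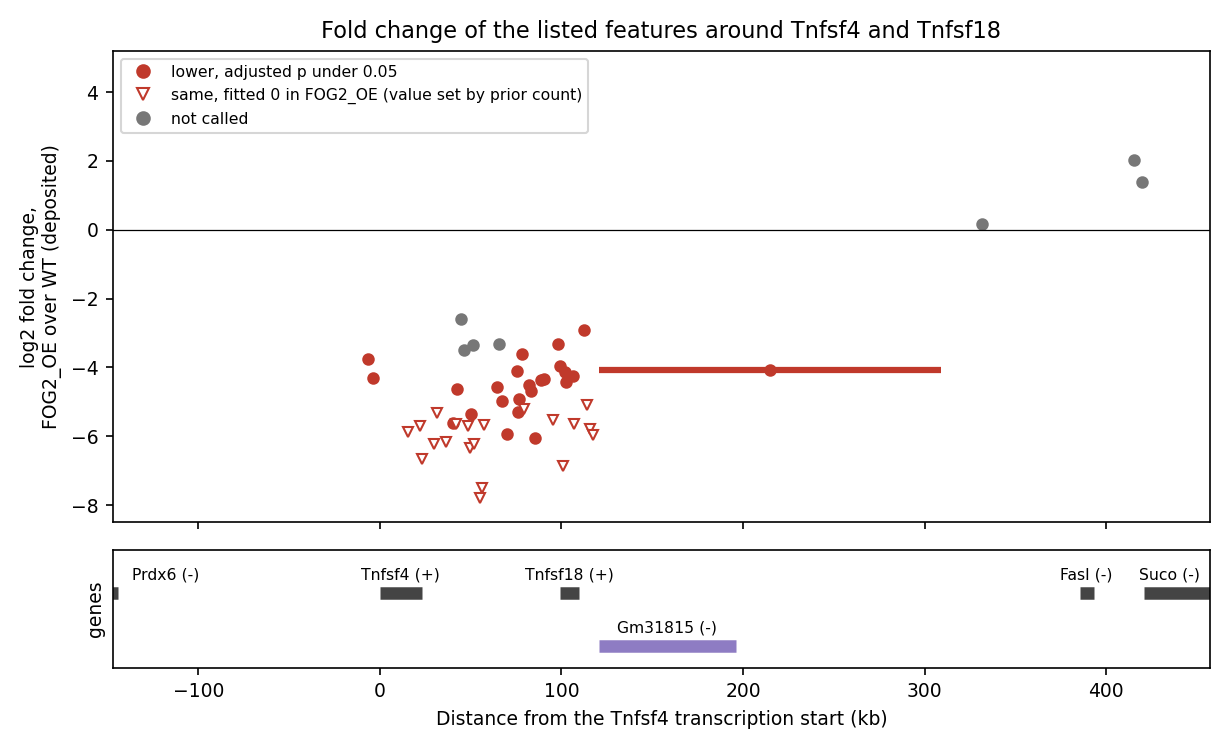
Deposited log2 fold change of FOG2_OE over WT (y axis) of the 51 features against the distance from the Tnfsf4 start in kb (x axis), with bars for feature spans, triangles for features at 0 in FOG2_OE, and genes with their strand below. The 48 features of the block lie between -7.79 and -2.60, the 3 of the right flank lie above 0, and no feature is listed left of the block.

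Ahead of the Tnfsf4 start, 2 short features stood 6.72 and 3.52 kb from it, at the outer border of the block. MSTRG.4948 (161388572 to 161388687) had 0.00426 CPM in FOG2_OE and 0.0780 CPM in WT, a ratio of 18.3 with an exact counting interval of 2.91 to 767. MSTRG.4949 (161391600 to 161391893) had 0.00426 CPM in FOG2_OE and 0.115 CPM in WT, a ratio of 27.0 with an interval of 4.55 to 1130. Each of these had about 1 read in all of FOG2_OE, and both passed the test in the authors' deposited table (adjusted p = 0.0286 and 0.00735).

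Inside Tnfsf4, 2 features were listed, both at 0 in FOG2_OE. MSTRG.4956 (161410931 to 161411133), in an intron, had 0.0927 CPM in WT and was at least 7.33-fold lower in FOG2_OE. MSTRG.4957 (161417614 to 161417823), over an exon, had 0.0808 CPM in WT and was at least 6.38-fold lower in FOG2_OE. Just past the end of the gene, MSTRG.4954 (161418695 to 161419035) also stood at 0 in FOG2_OE, with 0.160 CPM in WT, at least 12.6-fold lower. The adjusted p values of these 3 features were 0.00265, 0.0134 and 5.2e-05 in the authors' deposited table. The 3 features lie over or beside OX40L sequence, and whether MSTRG.4957 holds reads of Tnfsf4 mRNA was not tested.

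The stretch between Tnfsf4 and Tnfsf18 carried most of the block's signal in WT, though less than MSTRG.5377 alone (0.177 CPM) in FOG2_OE, with 33 features that summed to 0.165 CPM in FOG2_OE, against 7.18 CPM in WT, 43.6-fold lower. Of these, 29 passed the test in the authors' deposited table, where 4.65% of all features were called lower. At 0 in FOG2_OE stood 13 of them, against 1.07% of all features. The most abundant was MSTRG.4980 (161463723 to 161466579), 28.1 kb from the Tnfsf18 start. Its fitted values were 1.70, 1.55 and 1.81 reads in FOG2_OE libraries 1 to 3, against 99.3, 109 and 115 reads in WT libraries 1 to 3. The authors' deposited table put its log2 fold change at -5.93, with an implied SE of 0.80 and an adjusted p of 2e-14. The groups of fitted values stand far apart, but fitted values hide the spread between animals.

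Next in abundance in this stretch came MSTRG.4966 (161434915 to 161436542), with 0.0127 CPM in FOG2_OE and 0.705 CPM in WT, a ratio of 55.4 with an interval of 18.7 to 272. MSTRG.4971 (161445315 to 161446158) had 0.00837 CPM in FOG2_OE and 0.405 CPM in WT, a ratio of 48.4 with an interval of 12.9 to 403. Both rest on 2 to 3 reads in FOG2_OE. MSTRG.4988 (161480494 to 161481298) had 0.00422 CPM in FOG2_OE, about 1 read, and 0.380 CPM in WT, a ratio of 90.2 with an exact counting interval of 15.7 to 3594. This is the highest ratio among the 28 features above 0 in FOG2_OE, and it rests on that 1 read. MSTRG.4990 (161483889 to 161484635), with 0.0168 CPM in FOG2_OE and 0.375 CPM in WT, was 22.3-fold lower.

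Among features at 0 in FOG2_OE, the lowest deposited log2 fold changes were those of MSTRG.4977 (161449919 to 161450929) and MSTRG.4973 (161451573 to 161452278), at -7.79 and -7.51 in the authors' deposited table. Their WT levels were 0.353 and 0.290 CPM. Against the floor they were at least 27.9-fold and at least 22.9-fold lower in FOG2_OE, with exact lower limits of 22.2 and 18.1. MSTRG.4967 and MSTRG.4952, at 0 in FOG2_OE and 0.128 and 0.119 CPM in WT, were at least 10.1-fold and at least 9.36-fold lower. These bounds grow with the WT level, so their order is one of depth and not of effect.

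The 4 features of the block that were not called all lie in this stretch, and the authors' deposited table gives them log2 fold changes of -3.50 to -2.60. They were scarce, with 0.00422 to 0.0126 CPM in FOG2_OE and 0.0570 to 0.0980 CPM in WT. Their adjusted p values ran from 0.0540 to 0.133, and the called feature nearest to the threshold, MSTRG.4985, had 0.0487, in the authors' deposited table. MSTRG.4985 had 0.00422 CPM in FOG2_OE and 0.0690 CPM in WT, levels inside the range of the 4 uncalled ones.

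**Figure D2:**
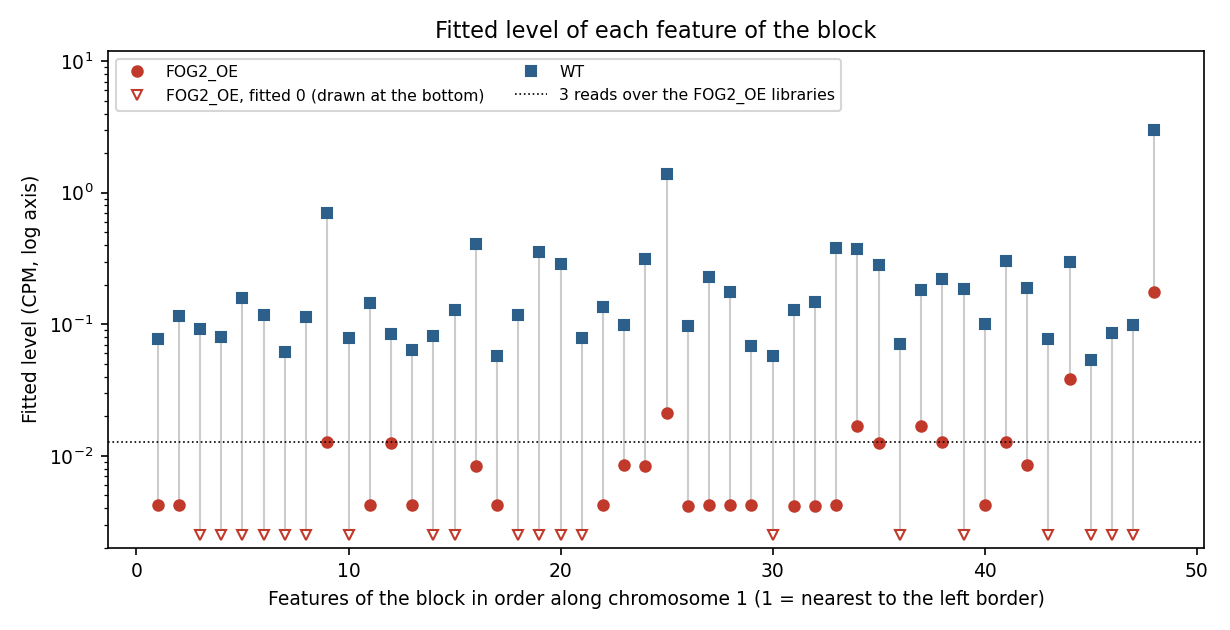
Fitted level in CPM (log y axis) of the 48 features of the block in order along the chromosome (x axis), with FOG2_OE as circles, or open triangles at the bottom where fitted at 0, and WT as squares. WT squares lie above the FOG2_OE mark for each feature, and most FOG2_OE marks are at or under the dotted line for 3 reads over the 3 libraries, 0.0127 CPM.

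The start of Tnfsf18 was covered by a feature of the block. MSTRG.5021 (161494462 to 161495007) covers the promoter bases printed in capitals above and an exon of the gene. Its fitted values were 1.01, 0.916 and 1.07 reads in FOG2_OE libraries 1 to 3, against 15.7, 17.3 and 18.2 reads in WT libraries 1 to 3. For it the authors' deposited table gives a log2 fold change of -3.96, with an implied SE of 1.03 and an adjusted p of 0.00029. Whether it holds reads of the GITRL mRNA was not tested.

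Ahead of the gene, MSTRG.4994 (161493279 to 161493568), 1.09 kb before the start, had 0.0169 CPM in FOG2_OE and 0.183 CPM in WT and was 10.8-fold lower. MSTRG.4991, 3.65 kb before the start, stood at 0 in FOG2_OE and 0.0715 CPM in WT, and MSTRG.4995, 8.61 kb before it, at 0.0126 CPM in FOG2_OE and 0.285 CPM in WT. All 3 passed the test in the authors' deposited table (adjusted p = 0.00213, 0.0162 and 3e-07).

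The 6 features that overlap Tnfsf18 summed to 0.0380 CPM in FOG2_OE, against 1.08 CPM in WT, 28.3-fold lower. All 6 passed the test in the authors' deposited table, where 4.65% of all features were called lower. Besides MSTRG.5021, 5 lie in introns. MSTRG.5025 (161497613 to 161498244) was the most abundant, with 0.0127 CPM in FOG2_OE and 0.304 CPM in WT. MSTRG.5023 and MSTRG.5027 stood at 0 in FOG2_OE, with 0.184 and 0.0778 CPM in WT, at least 14.6-fold and at least 6.15-fold lower. MSTRG.5024 had 0.00422 CPM in FOG2_OE and 0.1004 CPM in WT, and MSTRG.5026 had 0.00848 CPM in FOG2_OE and 0.188 CPM in WT.

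Past Tnfsf18, 4 short features preceded the long one, with a sum of 0.0381 CPM in FOG2_OE, against 0.537 CPM in WT, 14.1-fold lower. The whole FOG2_OE sum came from MSTRG.5018 (161507239 to 161508055), which had 0.0381 CPM in FOG2_OE and 0.300 CPM in WT. Its log2 fold change of -2.92 (adjusted p = 0.00148, implied SE 0.73) was the one nearest to 0 among the called features of the block in the authors' deposited table. The other 3 stood at 0 in FOG2_OE and at 0.0533 to 0.0983 CPM in WT.

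The right part of the block is a single feature, MSTRG.5377, which spans 188 kb from 161516212 to 161704597. It begins 0.137 kb from the end of Gm31815, covers both RefSeq starts of that long noncoding RNA shown above, and runs 113 kb beyond the outer one. Its fitted values were 14.1, 12.8 and 15.0 reads in FOG2_OE libraries 1 to 3, against 215, 236 and 248 reads in WT libraries 1 to 3. In the authors' deposited table its log2 fold change was -4.08 (implied SE 0.45, adjusted p = 1.2e-14), the smallest adjusted p of the window. The span of MSTRG.5377 also holds the ribosomal RNA gene Gm25488 and the RefSeq pseudogene Gm5704. Whether reads shared with other loci add to its level was not tested. The feature made up 41.5% of the block's sum in FOG2_OE and 24.8% in WT. Without it, the other 47 features were 36.8-fold lower, and MSTRG.5377 alone was 17.1-fold lower with an exact counting interval of 12.5 to 23.8. MSTRG.4980 had a ratio of 65.3 with an interval of 28.0 to 205, which does not overlap it, but both intervals leave out the spread between animals and the difference was not tested.

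**Figure D3:**
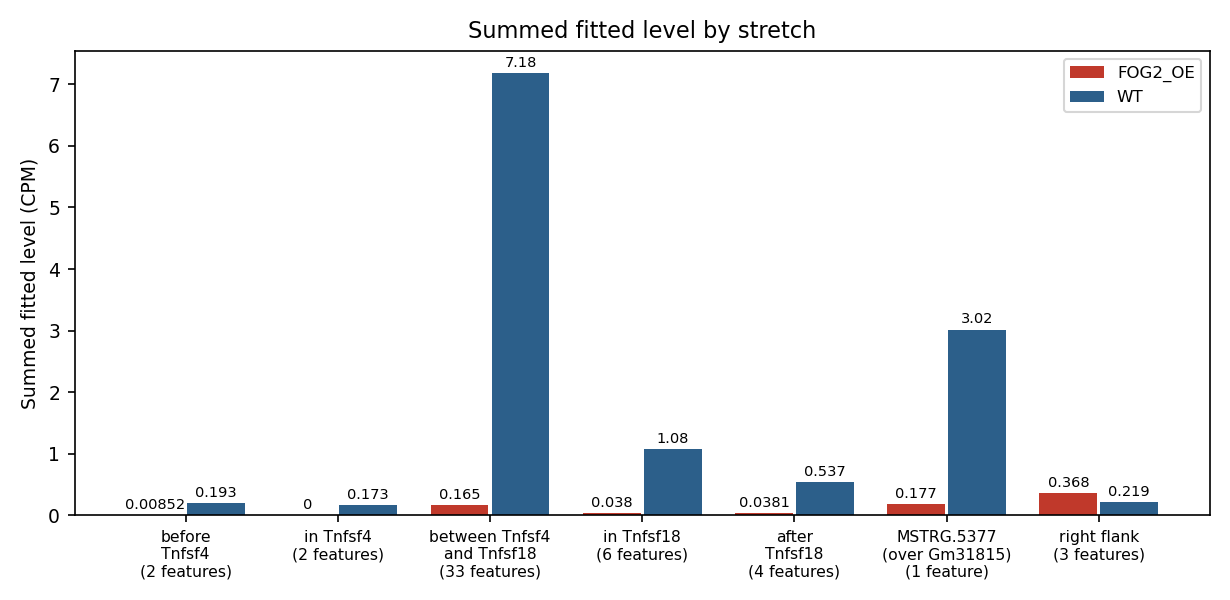
Summed fitted level in CPM (y axis, from 0) of the features in each stretch of the block and in the right flank (x axis), with FOG2_OE bars left of WT bars and no error bars because replicate spread is not in the fitted values. The gap between Tnfsf4 and Tnfsf18 has the tallest WT bar, 7.18 CPM, followed by MSTRG.5377 with 3.02 CPM, while in the right flank the FOG2_OE bar, 0.368 CPM, is the higher one.

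Within the block the WT level of the short features was set against their length. The 47 of them lie between 161388572 and 161512708, cover 15.7% of that stretch and are separated by gaps with a median of 1265 bases, none overlapping. Their lengths were 116 to 2857 bases, with a median of 269, against 238 over all features. Per kb of feature length, their WT level was 0.344 to 0.674 CPM with a median of 0.489 CPM. Across the 47 features, WT level and length had a Spearman's rho of 0.94 and WT level per kb and position along the chromosome one of 0.05, given as a description of features measured in the same libraries. The same values were not computed for other features, so they are not read as a trait of the block. Summed over covered bases, the 47 stood at 0.0128 CPM per kb in FOG2_OE and 0.469 CPM per kb in WT. MSTRG.5377 had 0.016 CPM per kb of span in WT, a span that may include introns. The lowest mean level listed anywhere was a log2 CPM of -4.71 in the authors' deposited table, so scarcer stretches are not described.

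**Figure D4:**
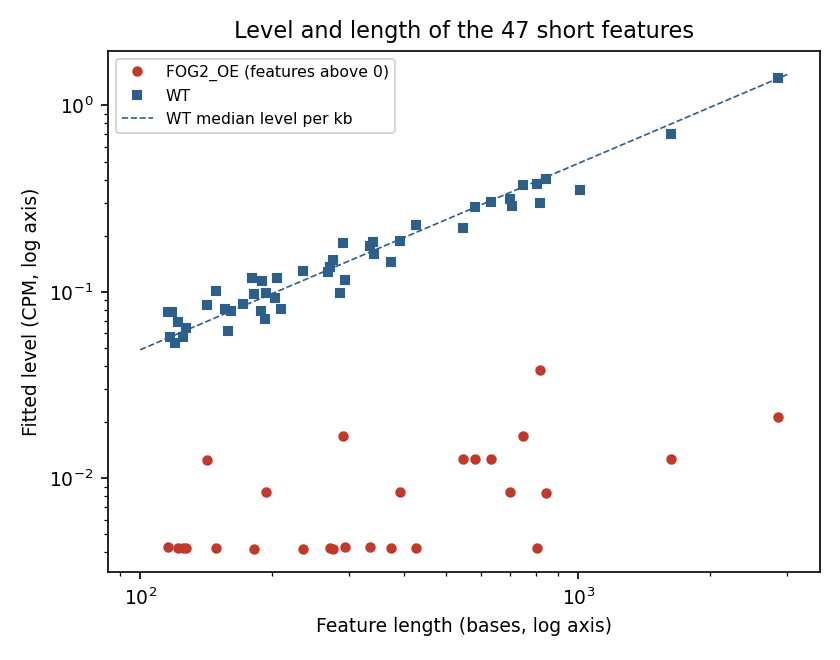
Fitted level in CPM (log y axis) against length in bases (log x axis) of the 47 short features, with FOG2_OE as circles (features above 0 only) and WT as squares. WT squares follow the dashed line of 0.489 CPM per kb, while FOG2_OE circles lie below them and many sit at about 1 read, 0.0042 CPM.

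In steps of 25 kb from the left border, the short features summed to 0.00852, 0.0170, 0.0505, 0.0803 and 0.0931 CPM in FOG2_OE and 0.286, 1.46, 2.21, 3.34 and 1.87 CPM in WT. The last 3 steps were 43.8-fold, 41.6-fold and 20.1-fold lower in FOG2_OE, on about 12, 19 and 22 reads there. The first 2 steps rest on about 2 and 4 reads in FOG2_OE.

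No feature of the flanks was called. On the left, 139 kb up to the window's edge, with the start of Prdx6, held no listed feature. On the right, 22.3 kb without a feature separated the block from MSTRG.5029 (161726863 to 161727069), over the processed pseudogene Gm15429, which had 0.179 CPM in FOG2_OE and 0.158 CPM in WT. A pseudogene can share reads with its parent gene, so this level is uncertain. MSTRG.5030 (161810862 to 161810977), 22.4 kb from the Fasl start, had 0.0579 CPM in FOG2_OE and 0.0131 CPM in WT, and MSTRG.5031 (161815156 to 161815486), next to the end of Suco, had 0.131 CPM in FOG2_OE, against 0.0487 CPM in WT. The authors' deposited table put their log2 fold changes at 0.18, 2.02 and 1.40 (implied SE 0.57, 1.25 and 0.78), the SE of 0.57 resting on a dispersion taken from features of like abundance. By the edgeR likelihood ratio test 0 of the 3 were called in the authors' deposited table (smallest adjusted p = 0.334) and 0 had an unadjusted p under 0.05. Together the flank stood at 0.368 CPM in FOG2_OE and 0.219 CPM in WT, a ratio of 1.68 with a counting interval of 1.17 to 2.41, and without MSTRG.5029 the ratio was 3.06. The block held 15.2 features per 100 kb, or 37.9 over the stretch of its short features alone, and the right flank 2.06. The borders were set by the calls, and 43 of the 48 block features had 3 reads or fewer in FOG2_OE. Nothing is therefore read from this contrast.

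Called features of 1 direction that lay no more than 100 kb apart were joined into clusters, of which 25 held at least 10 called features, 23 of them lower and 2 higher. The block had the third highest number of calls, shared with 1 other cluster, and its ratio of sums was the fourth lowest. The 3 other clusters with the nearest ratios were smaller. The distances given for them are to gene starts, and a cluster far from a start may still lie inside that gene, which was not examined. One on chromosome 2 from 41472274 to 41534060, 1120 kb from the start of Lrp1b, was 25.1-fold lower over 16 features, with 0.0545 CPM in FOG2_OE and 1.37 CPM in WT. One on chromosome 8 from 121456638 to 121481986, 62.3 kb from 1700018B08Rik, was 33.6-fold lower over 10 features, with 0.346 CPM in FOG2_OE and 11.6 CPM in WT. One on chromosome 5 from 107055192 to 107081797, 90.9 kb from Cdc7, was 38.4-fold lower over 10 features, with 0.158 CPM in FOG2_OE and 6.08 CPM in WT. Likeness here is the distance between ratios over 2 groups, and says nothing of shared function or control.

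**Figure D5:**
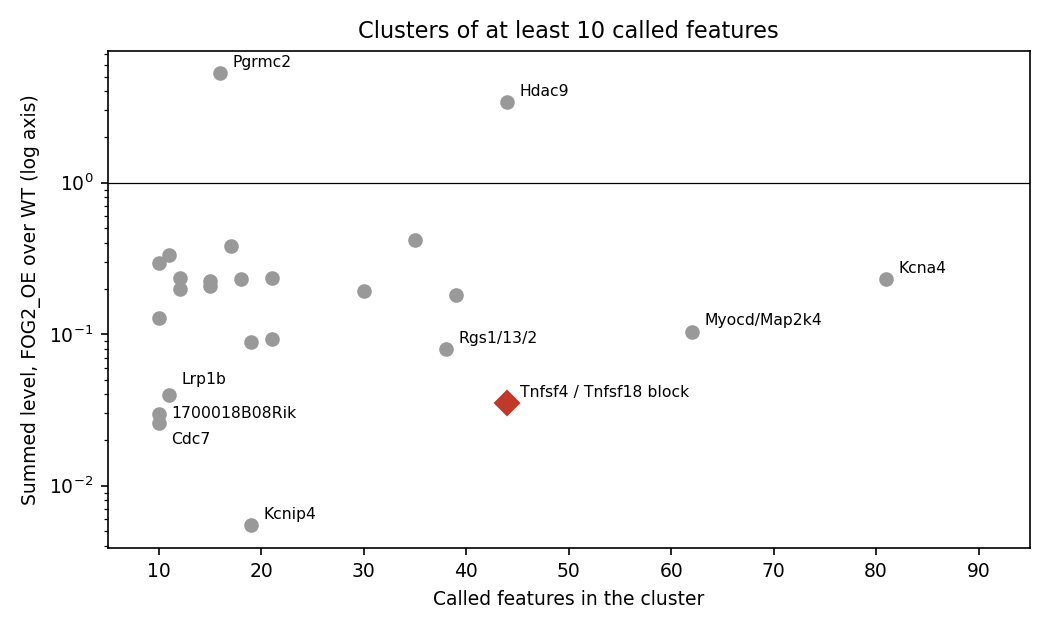
Ratio of summed fitted levels, FOG2_OE over WT (log y axis), against the number of called features (x axis) of the 25 clusters with at least 10 calls, with the block as a diamond. The block, at 0.035 with 44 calls, lies below the other clusters of more than 20 calls, and the 3 clusters below it have 10 to 19 calls.

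Other loci of the TNF superfamily were set beside the block. Linked features overlap a gene or, if intergenic, lie within 100 kb of its start as the nearest one. Of 18 ligand genes, 3 had linked features outside the window, 8 in all, and 1 of these was called lower in the authors' deposited table, where 4.65% of all features were. It was MSTRG.79112, 3.77 kb from the start of Tnfsf13b, which encodes the B cell survival factor BAFF. It had 1.34 CPM in FOG2_OE, against 8.05 CPM in WT. The authors' deposited table put its log2 fold change at -2.58, with an implied SE of 0.33 and an adjusted p of 3.7e-11. The 4 features of Tnfsf12, which encodes TWEAK, and the 3 of Tnfsf14, which encodes LIGHT, were not called, and the authors' deposited table put their log2 fold changes between -3.17 and -0.17. Over the 8 the median was -1.68 in the authors' deposited table.

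Of 25 receptor genes, 11 had linked features, 28 in all, and 0 were called by the edgeR likelihood ratio test, where 5.81% of all features were called in either direction. An unadjusted p under 0.05 was given to 4 of the 28 in the authors' deposited table, and to 17.0% of all features. Their median log2 fold change was -0.56 in the authors' deposited table. The OX40 gene Tnfrsf4 had 2 linked features, to which the authors' deposited table gives log2 fold changes of -0.97 and -0.02 (implied SE 1.05 and 0.76, the second from the dispersion of features of like abundance). The GITR gene Tnfrsf18 had no linked feature. The 28 features summed to 10.6 CPM in FOG2_OE, against 13.01 CPM in WT.

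Markers of cells that could carry these ligands were sought in the same way, though the table lists noncoding features and few marker loci. Of 8 myeloid genes, 4 (Cd68, Csf1r, Itgax and Lyz2) had 4 linked features, which summed to 0.243 CPM in FOG2_OE, against 0.222 CPM in WT. Of 8 T and B cell genes, 4 had 16 features, with 3.51 CPM in FOG2_OE and 4.77 CPM in WT. Of 7 endothelial genes, 6 had 29 features, with 14.9 CPM in FOG2_OE and 16.9 CPM in WT. Of these sums MSTRG.29176, linked to Npr3, held 10.2 CPM in FOG2_OE and 12.7 CPM in WT. Sums per gene were lower in FOG2_OE at Kdr, Tek and Npr3 and higher at Pecam1, Cdh5 and Emcn. Of the 29 features, 3 had an unadjusted p under 0.05 in the authors' deposited table. Only 1 of the 29, nearest to Npr3, passed the test there, but not with centring. For 5 fibroblast genes, 29 features summed to 13.6 CPM in FOG2_OE, against 13.6 CPM in WT. By the edgeR likelihood ratio test 0 of the myeloid, T and B cell and fibroblast features were called, with 0, 1 and 6 at an unadjusted p under 0.05 in the authors' deposited table. The 6 fibroblast features, 1 of Col1a1 and 5 of Col3a1, were all higher in FOG2_OE, with log2 fold changes of 1.08 to 3.01. The T and B cell feature, of Cd79a, was lower, at -1.10. Over all features 5.81% were called in either direction and 17.0% had an unadjusted p under 0.05, and nothing is read from counts in lists this short. Ptprc, the common leukocyte marker, had no linked feature.

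Some atrial muscle loci were lower in FOG2_OE as well. Of 7 atrial genes, 6 had 51 linked features, and 15 of these passed the test in the authors' deposited table, all lower, where 4.65% of all features were called lower. With centring 11 were called lower, against 3.49% of all features. The 51 features summed to 17.7 CPM in FOG2_OE, against 43.4 CPM in WT. The 15 were at Kcnj3 (9 of 12 features), Myl7 (3 of 6) and Sln (3 of 6), while 0 of 2 features of Nppa, 0 of 3 of Myl4 and 0 of 22 of Kcna5 were called by the edgeR likelihood ratio test. At an unadjusted p under 0.05 in the authors' deposited table (17.0% of all features) there were 0 of Nppa, 0 of Myl4 and 7 of Kcna5, whose 22 features had a median log2 fold change of 0.85 there. Of 4 ventricular genes, Myh7 alone had features, 3 in all, with 0.207 CPM in FOG2_OE and 0.2496 CPM in WT, and 0 were called by the same test or had an unadjusted p under 0.05. The part of these loci in the result was not tested.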

How the data were processed

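The data were 3 FOG2_OE and 3 WT libraries of ribosomal and poly(A)-depleted RNA. Per the submitters' processing notes, the tools were edgeR, STAR, deepTools and HTSeq 0.6.0, with no roles given, on mm10. How features were assembled and filtered is not given in the sources used here. Per the file headers, the authors' deposited table gives for every feature its log2 fold change and log2 CPM. From the same comparison the authors' deposited p-value and its adjusted value follow, beside the likelihood ratio, entered as a score. Its 6 sample columns, entered as a signal, are the deposited fitted values of the authors' model, since within a group they are constant multiples of each other (largest relative spread 1.8e-14). The planned count tests could not be run on them, and the authors' edgeR likelihood ratio test with Benjamini-Hochberg adjustment stands as the main result. Its p-values measure the spread between these libraries, which the labels do not tie to separate animals.

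The size ratio between groups came from 718 features above 300 fitted reads in both, the absolute size from the 659 of them with a log2 fold change under 1 in size, and CPM from those sizes. They were 71170626 to 84895513 reads. A negative binomial dispersion was solved from each deposited likelihood ratio of at least 0.1 (28194 features), the others taking the median of features of like abundance, and gave the implied standard errors. The solving of dispersions was tested on simulated data, but the standard errors themselves were not. A group at 0 was given a floor of 3 reads over its libraries. Intervals are exact Clopper-Pearson (95%) on totals rounded to whole reads, and floors and intervals cover counting error only. Starts count from 0 in the table (96 of 102 symbols shared with RefSeq started 1 base earlier) and are printed counting from 1. Genes came from GENCODE M21 and RefSeq, both on GRCm38.

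The members, gene lists and tests were chosen with earlier results of these data known. Features named are those at or within 10 kb of the starts of Tnfsf4 or Tnfsf18, the 6 most abundant in WT, the 6 lowest and 4 highest called log2 fold changes of the block, and all of the flanks. The Zfpm2 feature with the lowest p and the 3 clusters nearest in ratio were named too. Alternatives were another centring, F reference distributions, a stricter threshold, a minimum fitted count, joined features and sums without the most abundant feature. Features named at list genes outside the window were chosen after their values were seen. Steps ran in Python 3.11.15 with pandas 2.3.3, scipy 1.17.1 and numpy 2.4.6.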

Additional observations from a re-analysis of the deposited data

How the results depend on the processing

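The 44 lower calls of the block became 42 with the median ratio of all features centred at 1, a shift of -0.21 on the log2 scale, and 36 at an adjusted p under 0.01. Under an F reference for the deposited likelihood ratio they were 14 with 10 residual degrees of freedom and 0 with 4, where 46 of 48 had an unadjusted p under 0.05 (5.58% of all features, counting lower ones) and 0 of all 34518 features were called lower. Restricted to features with a mean fitted count of at least 20, 3 features of the block were left and all 3 were called lower. Of 87 features of the TNF superfamily, 45 were called lower (4.65% of all features), 44 of them in the block that the calls chose. With 10 and 4 residual degrees of freedom 15 and 0 were left, against 1.07% and 0.0% of all features. Only 14 of the 87 had a mean fitted count of at least 20, and 4 of these were called lower (7.86% of all such features). The Zfpm2 feature kept its log2 fold change of 9.74 with 4 residual degrees of freedom but was no longer called. The ratio of the block's sums, 0.035, was 0.0272 without its most abundant feature, and that of the flank, 1.68, was 3.06 without its own. No flank feature reached a mean fitted count of 20, so that filter gives no flank value. Of the 29 features named in the window, 14 lost their call with 10 residual degrees of freedom, 26 with 4, and 1, MSTRG.4985, with centring. No feature of the window overlaps another, so joining features changed nothing.

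No paired analysis was possible because the sample columns hold fitted values without replicate spread. For the same reason DESeq2, edgeR's quasi-likelihood fit and leaving out each replicate were not run. The depth limits the FOG2_OE side most: 43 of the 48 features rest on 3 reads or fewer there.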

Other observations

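The nearest listed features beyond the window were not called either. On the left, MSTRG.4941 (161238530 to 161239855), 149 kb from the block, had 0.401 CPM in FOG2_OE and 0.694 CPM in WT, with a log2 fold change of -0.79 (implied SE 0.43) in the authors' deposited table. On the right, MSTRG.5041 (161974727 to 161974991), 270 kb from the block and listed on the plus strand, had 0.0876 CPM in FOG2_OE and 0.143 CPM in WT, with a log2 fold change of -0.70 (implied SE 0.63) in the authors' deposited table. Farther left, MSTRG.4940 and MSTRG.4938 had -0.007 and -0.84 there (implied SE 0.56 and 0.72). Farther right, MSTRG.5042 and MSTRG.5036 had -1.14 and -2.68 (implied SE 1.25 and 1.11). MSTRG.5036 stood at 0.0127 CPM in FOG2_OE and 0.0897 CPM in WT, with an adjusted p of 0.0837 by the edgeR likelihood ratio test.

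The block lies in a run of 62 neighbouring features listed on the minus strand, and the longest such run of the table held 231. In the right flank, the 250 bases before the RefSeq long noncoding RNA Gm31869 hold 1 match to the GATA motif AGATAA and those before Fasl hold 0, and no listed feature covers either stretch.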
